A study of Mus musculus with 12 samples.

Results

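Bone marrow-derived macrophages lacking the long noncoding RNA lincRNA-EPS (KO) after 2 h of lipopolysaccharide (LPS) were compared with KO macrophages at 0 h. The comparison rests on 4 of the 12 libraries of the series, 2 labelled KO 2 h and 2 labelled KO 0 h. The assay was ATAC-seq: the transposase Tn5 inserts sequencing adapters where DNA is open, and open sites appear as peaks of reads. All cells came from female C57BL/6 mice. Marrow was grown for 9 days with 20% L929 supplement, which provides the macrophage growth factor, and LPS was given at 100 ng/ml, with 0 h as the untreated state. The other 8 libraries are 2 each of KO at 6 h and of wild type (WT) at 0, 2 and 6 h. They took no part in choosing the gained and lost regions and serve to follow the regions in cells that the choice did not use. The labels do not say how the gene was deleted or whether both libraries of a group stem from different mice, so the spread between them may be technical. Neither the deleted locus nor macrophage marker genes were analysed here, because positions of genes in the build of the peak lists, mm9, were not used.

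LPS is sensed on macrophages by the TLR4 receptor with its partners CD14 and MD-2. The signal sends NF-κB, AP-1 and interferon regulatory factors into the nucleus within the first hours. Much of the chromatin these factors use in macrophages is already open at rest, held so by lineage factors such as PU.1 and C/EBP, while other enhancers open only after the stimulus. lincRNA-EPS is a nuclear RNA of resting macrophages known as a restraint on inflammatory genes, and KO cells lack this RNA at both times compared here.

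The 267349 peaks of the 4 KO lists were joined into 85737 regions, with 1 bp of overlap enough to join peaks. A region was gained when both libraries at 2 h called it and neither at 0 h did, and lost in the reverse case. This choice found 5956 gained and 319 lost regions, which are 6.95% and 0.372% of the regions. Since calls in these 4 libraries define both sets, those counts are a description. Thinned to equal background coverage, as described below, the same lists gave 3444 gained (4.29%) and 794 lost (0.99%) of 80188 regions. The deposited WT lists, joined and called by the same rule, gave 3526 gained (4.02%) and 655 lost (0.748%) of 87603 regions. Thinned in the same way, the WT lists gave 2998 gained (3.67%) and 948 lost (1.16%) of 81771 regions. After thinning the KO thus had more gained and fewer lost regions than WT. That order includes KO 0 h replicate 2, which kept 54770 peaks, against 61801 to 67789 in the other KO and WT libraries at 0 and 2 h. The difference between genotypes in these counts was not tested. Of the 85737 KO regions, 47392 (55.3%) were called in all 4 libraries. The other 38345, with partial calls, hold the gained and lost regions and are given below as a second background. In 9989 both libraries at 2 h and 1 of 2 at 0 h made a call, and in 1250 both at 0 h and 1 of 2 at 2 h did. Calls in a single library accounted for 11903 regions at 2 h and 4215 at 0 h, and 4713 regions had 1 call at each time.

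Depth differed between the 2 times in the KO, and that touches every count below. No read totals are given in the sources used here, so a background coverage in reads was recovered from the deposited fold and p of each peak. It was 2.79 and 3.04 reads in the KO 2 h libraries, against 1.77 and 1.43 reads in the KO 0 h libraries, and 2.17 to 3.35 reads in the other 8. A deeper library calls weaker sites, so lists thinned at random to 1.43 reads of background are given beside the deposited ones. In WT the 2 times overlapped in depth, with 3.03 and 2.32 reads at 2 h and 2.35 and 2.51 reads at 0 h. The peak names inside the files of the libraries labelled 2 h, WT and KO alike, read 1 h. The labels are followed here. The conflict was not settled, and the true time of the 2 h libraries may be 1 h.

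KO cells had more called sites at 2 h than at 0 h. The lists held 72710 and 74362 peaks at 2 h, against 65506 and 54771 peaks at 0 h. Both libraries at 2 h lay above both at 0 h, and the low value belonged to KO 0 h replicate 2. The mean difference was 13397.5 peaks, between 73536 ± 1168 at 2 h and 60138.5 ± 7591 at 0 h (SD, n = 2 each; exact two-sided permutation p = 0.33, the smallest that 2 libraries against 2 can give). Peaks covered 37.8 and 39.3 Mb at 2 h and 32.7 and 27.5 Mb at 0 h. In the thinned lists there were 65779 and 64855 peaks at 2 h, against 64360 and 54770 peaks at 0 h. KO 0 h replicate 1 then stood just under KO 2 h replicate 2, and the mean difference was 5752 peaks. Without KO 0 h replicate 2 the deposited lists differed by 8030 peaks. WT showed a rise of 6737 peaks between the same times in the deposited lists and of 4775 in the thinned ones. The KO change exceeded the WT change by 6660.5 peaks (exact permutation p = 0.444) and by 977 peaks after thinning (exact permutation p = 1.0). Without KO 0 h replicate 2 the excess was 1293 peaks in the deposited lists. The smallest p that this test can give is 0.056.

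**Figure D1:**
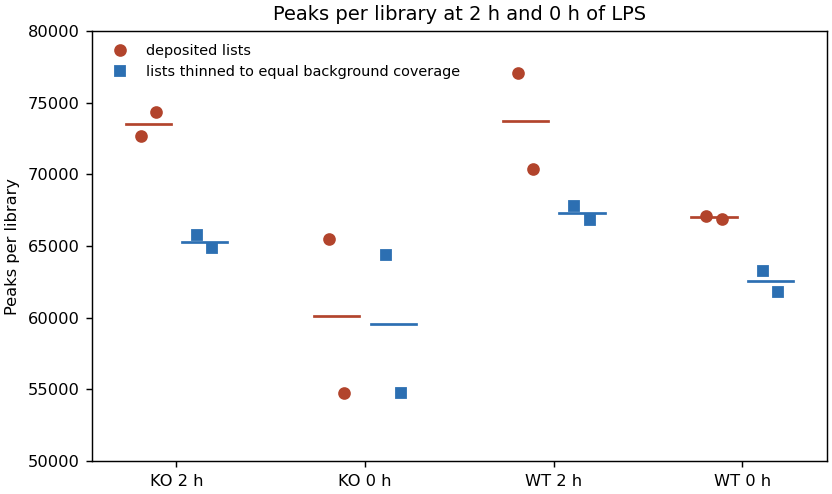
Number of called peaks per library (vertical axis, starting at 50000) for KO and WT at 2 h and 0 h of LPS; each point is 1 library, bars are means of 2 libraries, circles are the deposited lists and squares the lists thinned to 1.43 reads of background. KO 0 h replicate 2, at 54771 peaks, is the lowest point with and without thinning, and both KO 2 h libraries stand above both KO 0 h libraries in either kind of list.

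The gained regions were narrow and of modest strength, as were regions with partial calls in general. Their median width was 352 bp, with the middle of the distribution between 302 and 414 bp, against 648 bp for regions called in all 4 libraries and 320 bp for all regions that were not. The authors' fold of the summit over the local background had medians of 4.48 and 4.36 at the 2 libraries of 2 h. Within each list, peaks were also ranked by −log10 q, the caller's measure of confidence, with 100 as the strongest. Gained regions had median percentiles of 19.0 and 21.0 in the 2 h lists. All regions with partial calls, where called, had median percentiles of 20.0 and 20.4 in these lists and median folds of 4.55 and 4.45. In strength the gained regions were thus near that background. Regions just outside the rule, with 1 call at 0 h, had 28.1 and 29.3 there. Distances to chromatin called at both times were near those of other regions with partial calls. The median distance to the nearest region called in all 4 libraries was 6.81 kb, and 15.3% lay within 1 kb, against 8.07 kb and 13.4% for all regions not called in all 4. They were spread over every chromosome in the lists, from 6.11% of the regions of chromosome 16 to 7.87% of those of chromosome 18.

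The strongest gained region lay at chr3:135303048-135303629 (mm9, as all positions here). Its fold was 8.08 and 8.42 in the KO 2 h libraries and it was not called at 0 h in either KO library. Both peaks stood high in their lists, at a mean percentile of 72.7 ± 1.8 (SD, n = 2), and their summits were 3 bp apart. WT cells gave the same pattern, with folds of 7.79 and 9.48 at 2 h and no call at 0 h. At 6 h all 4 libraries called the site, with folds of 7.67 and 8.77 in KO and 7.71 and 7.39 in WT. Its percentile by then was 95.5 and 94.4 in the KO lists and 93.6 and 89.2 in the WT lists.

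A region at chr10:117303804-117304806, the widest of the 10 strongest at 1003 bp, had folds of 9.09 and 9.71 at KO 2 h and no call at KO 0 h. It too was called in both WT libraries at 2 h, with folds of 9.82 and 8.24, and in neither at 0 h. The region at chr16:84603860-84604431 had lower folds, 6.41 and 6.07 at KO 2 h and 4.95 and 5.13 at WT 2 h, again with no call at 0 h in either genotype. Its summits held 64 and 62 reads at KO 2 h, against 58 and 61 reads for the region on chromosome 3. The calls were alike at chr1:137711874-137712416, with folds of 6.57 and 6.94 at KO 2 h and 4.94 and 7.59 at WT 2 h.

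Other leading regions had lower folds in WT. The region at chr9:88833776-88834277 had folds of 9.76 and 10.1 at KO 2 h, with 5.45 and 4.82 in the WT 2 h lists. At chr9:83374262-83374798 the folds were 8.97 and 10.9 at KO 2 h and 6.69 and 6.63 at WT 2 h. The 10 strongest were chosen by percentile at KO 2 h, so values there are high by choice, and lower WT values carry no reading about genotype. Each fold was set by the authors' caller within its own list, and no difference between genotypes was tested. Neither of the chromosome 9 sites just named was called in either genotype at 0 h. A region at chr12:40023714-40024205 had folds of 9.76 and 10.1 at KO 2 h, and the highest folds of the 10 at 6 h, with 11.6 and 12.4 in KO and 13.1 and 13.7 in WT.

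WT cells at rest already had a call at 4 of the 10 strongest regions, in 1 of 2 libraries each. These were chr12:40023714-40024205, chr11:99026082-99026684, chr9:115492624-115493089 and chr15:73561304-73561738, with WT 0 h folds of 4.47, 4.48, 6.86 and 4.21. Every one of the 10 had a call in both WT libraries at 2 h and in the 4 libraries of 6 h, and 6 of the 10 were gained in WT by the same calls. Both WT libraries at 2 h called 72.9% of all regions and 98.2% of those called in all 4 KO libraries. All 4 libraries at 6 h called 69.1% of all regions, and WT gained 3.56% of them. Full calls at 10 regions picked for strength are thus a description. The heat map of folds shows the calls of each of the 10.

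**Figure D2:**
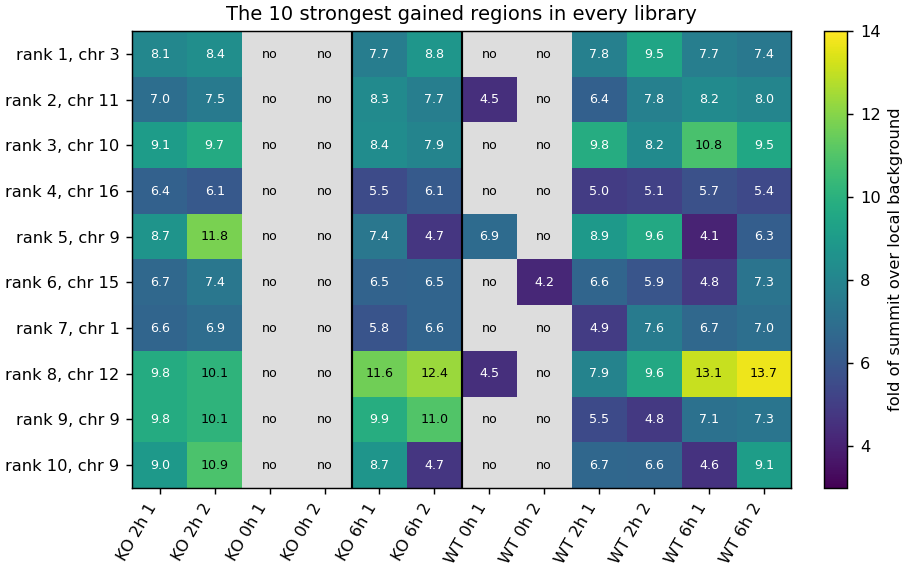
Authors' fold of the summit over the local background at the 10 strongest gained regions (rows, ordered by mean percentile at KO 2 h) in each of the 12 libraries (columns, named by genotype, time and replicate); grey cells marked no had no call. All 10 rows are filled at KO 2 h, KO 6 h, WT 2 h and WT 6 h and empty at KO 0 h, and 4 of them have a WT 0 h cell filled.

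Taken over the whole set, the gained regions were called more often in WT at 2 h than in WT at 0 h. Both WT libraries at 2 h, with 73.4% and 62.1% of the 5956 regions, stood above both at 0 h, with 41.7% and 40.7%. The difference of 26.6 percentage points had an exact permutation p of 0.33, the smallest possible. The background coverage of the WT 2 h library with 62.1% was 2.32 reads, and the part of depth in this difference was not tested. Over all 85737 regions the same libraries called 82.7% and 77.1% at 2 h, against 73.4% and 73.1% at 0 h, a difference of 6.66 points. Regions called in all 4 KO libraries were also called in nearly every WT library, which holds that value down. Over the 38345 regions with partial calls the shares were 62.0% and 50.6% at 2 h, against 43.2% and 42.5% at 0 h, a difference of 13.4 points. In thinned lists the WT difference was 20.9 points at gained regions, 10.1 points at regions with partial calls and 5.26 points over all regions.

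By the call rule itself, 946 of the 5956 KO gained regions (15.9%) were gained in WT too, where 3.56% of all regions were. WT gained 7.46% of the regions with partial calls, and 620 (6.21%) of the 9989 just outside the rule, with 1 call at KO 0 h. Those 946 are 31.0% of the 3050 regions that WT gained among the regions of the KO lists. Of the KO gains, 1066 (17.9%) were called in all 4 WT libraries at 0 and 2 h, against 62.4% of all regions and 21.7% of those with partial calls. None of the 4 called 657 (11.0%), near the 9.78% of all regions and below the 21.8% of those with partial calls. WT lost 60 of them (1.01%), against 0.587% and 1.23%. No call in any of the other 8 libraries was found for 143 (2.40%), against 4.20% and 9.38%.

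**Figure D3:**
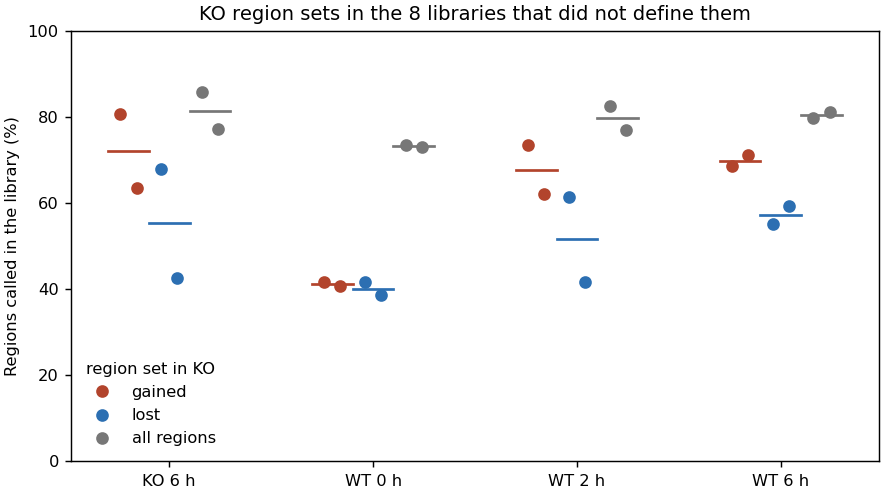
Share of the KO gained, KO lost and all regions (colours) called in each of the 8 libraries that did not define the sets (vertical axis, percent); points are libraries and bars are means of 2. Gained regions stand near 41% at WT 0 h and at 62.1% and 73.4% at WT 2 h, while lost regions are not lower at WT 2 h than at WT 0 h.

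Strong gained regions differed from weak ones in how far other libraries called them. The set was split into 4 groups of 1489 regions by mean percentile at KO 2 h. Both WT libraries at 2 h called 77.0% of the strongest group, with percentiles of 28.9 to 72.7, and 32.8% of the weakest. The same libraries called 72.9% of all regions and 41.6% of those with partial calls, so the strongest group was near the level of all regions. WT gained 24.8% of the strongest and 10.7% of the weakest group by its own calls, where it gained 3.56% of all regions and 7.46% of those with partial calls. Both WT libraries at 0 h called 32.1% of the strongest group and 16.8% of the weakest, against 66.0% of all regions and 28.5% of those with partial calls. The share called rises with strength at WT 0 h as well, and these shares are a description of the lists.

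**Figure D4:**
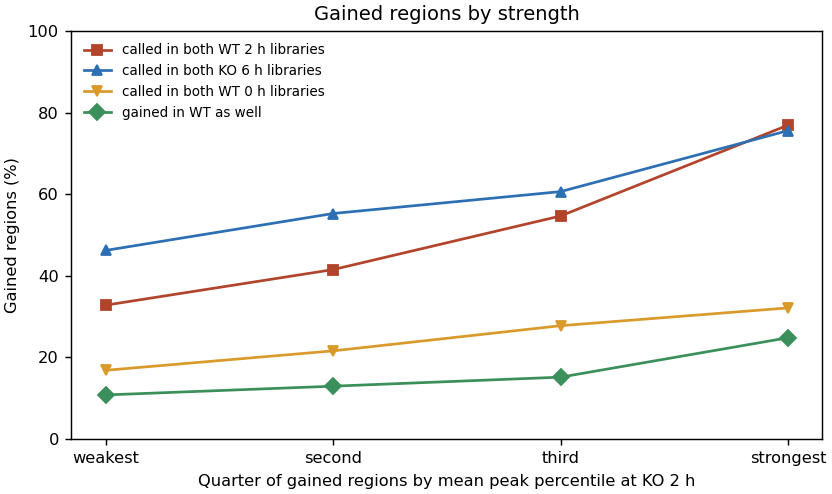
Percent of KO gained regions (vertical axis) with the listed calls in each of 4 groups by strength (horizontal axis, 1489 regions each). All 4 lines are highest in the strongest group, where 77.0% of regions were called in both WT 2 h libraries and 24.8% were gained in WT.

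At 6 h the KO called gained regions less often than regions in general and more often than the regions with partial calls. Both KO libraries at 6 h called 3540 of the gained regions (59.4%), 1 of 2 called 1508 and neither called 908 (15.2%). Over all regions both called 74.9% and neither 11.8%, and over those with partial calls 48.8% and 25.5%. All 4 libraries at 6 h, KO and WT, called 2879 (48.3%), against 69.1% of all regions and 38.2% of those with partial calls. Of the 946 regions gained in both genotypes, 562 (59.4%) had a call in each of the 4 libraries of 6 h. None of the 4 called 57 (6.03%), a lower share than the 8.38% of all regions and the 18.3% of those with partial calls. In these lists the 57 sites were called only at 2 h in either genotype. The strongest of these, at chr10:5368775-5369144, had folds of 6.86 and 6.43 at KO 2 h and 6.44 and 6.63 at WT 2 h. It was followed by chr3:106277049-106277442, with 8.71 and 5.19 at KO 2 h and 4.21 and 5.42 at WT 2 h. These were picked by percentile after their values were seen.

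Some gained regions lay near each other. Another gained region lay within 20 kb for 1143 of them (19.2%), mostly in pairs (467), with 59 groups of 3 and 8 groups of 4. No such share is given for other sets of regions, so whether gained regions group more than others was not tested. The tightest group of 4 spanned 13.9 kb at chr6:67120212-67134077 and held no other region, and WT gained 2 of its members. A group at chr9:89074232-89123314 held 4 gained regions among 8, with 4 called in all 4 KO libraries at 0 and 2 h. Its strongest member stood at a percentile of 53.1. At chr17:35311416-35345483, 4 of 11 regions were gained, all 4 were called in both KO libraries at 6 h and WT gained none. Only 1 of these 4 had no call at WT 0 h, and both WT 0 h libraries called 1. Both WT libraries at 2 h called 2 of the 4. Across the 8 groups WT gained 8 of the 32 members (25%), against 15.9% of all gained regions. The share was 3.56% for all regions and 7.46% for those with partial calls. Single groups held 0 to 2 such members, and the difference, which rests on 32 regions, was not tested.

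Lost regions were few and, like regions with partial calls in general, weak. Their median width was 331 bp, against 320 bp for all regions with partial calls. Their folds at 0 h had medians of 4.69 and 4.97, against 4.79 and 4.95 for regions with partial calls, where called. Their median percentiles were 12.2 and 13.7 in the 0 h lists, against 17.5 and 13.7. Across chromosomes lost regions made up 0.145% of the regions of chromosome 8 (6 of 4151) to 0.629% of those of the X chromosome (14 of 2224). These counts are small, and differences between chromosomes were not tested.

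The strongest lost region, at chr16:55811903-55812276, had folds of 6.38 and 5.78 at KO 0 h and no call at KO 2 h. WT called it in all 4 libraries at 0 and 2 h, with folds of 3.04 and 3.28 at 2 h, against 4.04 and 5.54 at 0 h. At 6 h 1 of 2 KO libraries and 0 of 2 WT libraries called it. The region at chr9:55915837-55916171 had folds of 7.94 and 6.60 at KO 0 h. WT folds there were 4.71 and 5.12 at 2 h and 10.4 and 4.85 at 0 h, and no library called it at 6 h. In both regions the WT libraries thus kept a call at 2 h.

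Further down the list the calls in other libraries were mixed. At chr19:18630163-18630530 the KO 0 h folds were 7.94 and 6.18 and 0 of 4 libraries at 6 h called the site, but both WT libraries at 2 h did. The region at chr15:5583787-5584114, with 8.66 and 5.36 at KO 0 h, had folds of 7.59 and 12.9 at KO 6 h and was called in all 4 libraries at 6 h. WT gained that region at 2 h, and also the one at chr10:126780147-126780530. The other 5 of the 10 strongest, at chr10:5538262-5538793, chr14:65461297-65461788, chr5:150653564-150653960, chr5:93752353-93752717 and chr17:25011336-25011660, had mean folds of 6.14 to 7.01 at KO 0 h. WT lost 0 of the 10, where it lost 0.587% of all regions and 1.23% of those with partial calls. It gained 2 of the 10, where it gained 3.56% and 7.46%. At shares this low, 10 regions cannot show whether WT loses such sites.

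As a set, the lost regions were not called less often in WT at 2 h than at 0 h. WT libraries at 2 h called 61.4% and 41.7% of the 319, against 41.7% and 38.6% at 0 h (difference 11.4 points, exact permutation p = 0.667). The same difference was 6.66 points over all regions and 13.4 points over those with partial calls, so the lost set was near the latter. WT lost 5 of the 319 (1.57%), against 0.587% of all regions and 1.23% of those with partial calls. In the opposite direction, WT gained 21 of them (6.58%), against 3.56% and 7.46%. The 5 lost in both genotypes lay at chr9:114284474-114284867, chr2:17564630-17564911, chrX:150104830-150105066, chr6:136432543-136433025 and chr19:6373913-6374184. Their mean percentiles at KO 0 h were 7.20 to 19.9. In the KO at 6 h, both libraries called 122 of the 319 (38.2%), against 74.9% of all regions and 48.8% of those with partial calls. Neither called 88 (27.6%), against 11.8% and 25.5%.

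Regions called at both times could still change their place in the lists. For this, 45180 regions called in all 8 libraries at 0 and 2 h, KO and WT, were ranked within each library by −log10 q, so that every library ranked the same regions. A KO region counted as higher at 2 h when both libraries at 2 h stood at least 10 percentile points above both at 0 h, and as lower in the reverse case. This choice, made after the data were seen, gave 1994 higher regions (4.41%) and 1709 lower ones (3.78%). The 4 WT libraries decided only which regions were ranked. Among the 1994 higher regions the mean WT rank was higher at 2 h than at 0 h in 1456 (73.0%), with a median WT change of 7.65 points. Among the 1709 lower ones it was higher in 594 (34.8%), with a median WT change of −3.71 points. Over all 45180 regions these values were 48.4% and −0.21 points. With ranks by recovered summit over background, the median WT changes were 4.67 points at higher and −1.52 points at lower regions. Without 1 KO library at a time they were 3.29 to 4.52 points and −3.02 to −2.38 points. The full 10-point rule in WT was met by 423 (21.2%) of the higher and 136 (7.96%) of the lower regions, against 3.51% and 2.92% of all regions. Over all ranked regions the KO and WT rank changes had a Pearson r of 0.29 and a Spearman rho of 0.22, given as a description across regions that share 8 libraries.

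The rises with the widest gap between times were at sites that WT moved as well. The region at chr12:86854480-86855137 ranked at 71.6 and 74.1 at KO 2 h, against 10.3 and 5.09 at KO 0 h. WT placed it at 49.2 and 69.7 at 2 h, against 3.61 and 16.7 at 0 h. The authors' folds there were 8.96 and 8.83 at KO 2 h and 5.14 and 4.57 at KO 0 h. A region at chr12:8393155-8393875 ranked at 63.5 and 70.9 at KO 2 h, against 2.87 and 1.72 at KO 0 h, and WT placed it at 62.4 and 56.6, against 18.7 and 9.77. Next came chr19:24898956-24899655, chr16:58415202-58415881 and chr7:75837397-75838071, with rises of 55.0 to 61.6 points in KO and 47.7 to 50.3 points in WT. In all 5 regions both WT libraries at 2 h stood above both at 0 h.

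Among falls in rank, chr12:56589609-56590268 led, at 12.3 and 13.0 at KO 2 h, against 71.02 and 58.7 at KO 0 h. WT ranks moved the same way there, at 30.6 and 15.4 at 2 h, against 60.6 and 51.4 at 0 h. The next, chr13:24005553-24006230, ranked at 24.2 and 22.1 at KO 2 h, against 65.2 and 82.5 at KO 0 h. In WT it stood at 46.9 and 46.8 at 2 h and at 39.9 and 47.8 at 0 h, so the 2 times overlapped. The regions at chr6:38924823-38925252, chr5:35038016-35038597 and chrX:165085632-165086207 had changes of −48.6 to −39.8 points in KO and of −26.9 to −14.5 points in WT. In the last 2 of these the WT libraries of both times overlapped.

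**Figure D5:**
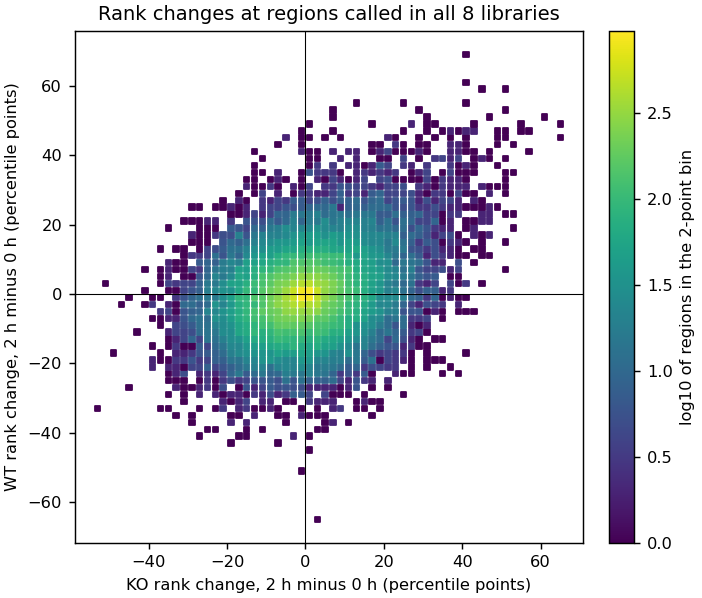
Change in mean rank (2 h minus 0 h, percentile points) in KO (horizontal axis) and WT (vertical axis) at the 45180 regions called in all 8 libraries; colour gives the number of regions in each 2-point square on a log10 scale. Most regions lie near 0 on both axes, and the 5 regions named for a rise in KO have WT changes of 45.3 to 50.3 points.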

How the data were processed

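Peak lists of 12 ATAC-seq libraries (6 groups of 2) were the starting point, and 4 of them, KO at 2 h and 0 h, define the regions. The submitters' processing notes name MACS2, Picard and Bowtie2 2.1.0, and the build mm9. Duplicate removal, Tn5 offsets and calling thresholds were not given in the sources used here, and kept duplicates would inflate peaks. Names in the deposited lists show 1 call per library, with no pooling. The deposited lists give per peak the authors' fold ratio of summit over background, −log10 p and −log10 q values, and a score of 10 times −log10 q. These values described, ranked and filtered peaks within lists.

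Coverage was recovered by solving fold and p for whole summit reads, which matched the deposited p within 0.001 for 100% of peaks. Depth in reads is unknown, and the lowest background of a list served as its relative depth. Thinning drew each summit binomially to 1.43 reads of background and kept peaks with −log10 p of at least 4.18. Named regions are the 10 gained and 10 lost with the highest mean percentile of −log10 q, and 5 each for rank changes. Groups follow the sample titles. Tests are exact permutations over libraries, and alternatives changed peak thresholds, overlap, peak number, depth and the libraries kept. The members, lists and tests were chosen with earlier results of these data known. Gene lists, cell type markers and sequence motifs that were planned were not used, because annotation and sequence of mm9 were not used here. Counting was tested on simulated data. Tools were scipy 1.17.1, pandas 2.3.3 and numpy 2.4.6 under Python 3.11.15.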

Additional observations from a re-analysis of the deposited data

Results flagged for a closer look

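The regions that moved in opposite directions in the genotypes were set apart because every library of one genotype went one way and every library of the other the opposite way. There were 60 regions gained in KO and lost in WT, 1.01% of the KO gains, where WT lost 0.587% of all regions and 1.23% of those not called in all 4 KO libraries. They were led by chr1:141164467-141164882 at a mean percentile of 38.4 in the KO 2 h lists and chr10:13753824-13754234 at 34.6. There were 21 regions lost in KO and gained in WT, 6.58% of the KO losses, where WT gained 3.56% of all regions and 7.46% of those not called in all 4 KO libraries. They were led by chr10:126780147-126780530 and chr15:5583787-5584114, at mean percentiles of 35.1 and 33.3 in the KO 0 h lists. The difference between genotypes was not tested at any of them.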

How the results depend on the processing

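The count of regions depended on how peaks were chosen. Thinning to equal background coverage gave 3444 gained and 794 lost regions, and the same number of peaks per library gave 1945 gained and 1235 lost. The gained share of changed regions was 94.9% in the deposited lists, 81.3% after thinning and 61.2% with equal peak numbers. By construction, a lone library needs 1 call where a pair needs 2, and leaving out 1 of the 4 libraries at a time gave 8050 to 13936 gained and 886 to 3559 lost regions. The 8050 and the 3559 both came without KO 0 h replicate 2, and the gained share was then 69.3%. A floor of 5 on −log10 q, a cover of at least 50% of the region and regions chained over all 12 lists gave 5772 to 7179 gained and 280 to 347 lost. The WT difference at gained regions was 18.2 to 27.0 percentage points over the same settings. The rise in KO peak number was 8030 without KO 0 h replicate 2, 18765 without KO 0 h replicate 1 and 5752 after thinning, and the rise in covered length was 8.43 Mb in the deposited lists and 4.49 Mb with equal peak numbers. With the replicate numbers as a block the rises of 13397.5 peaks and 8.43 Mb had an exact permutation p of 0.5, the smallest that 2 pairs can give, and region counts come from no test. For the rank changes, settings added after the data were seen gave 1786 and 2220 higher and 1779 and 2006 lower regions when ranked by recovered summit over background and by fold. Leaving out 1 library gave 4247 to 5739 higher and 4141 to 5889 lower regions. Presence in a list carries no counting interval, and a site missing from a list of low depth may still be open.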
